A study of Mus musculus with 15 samples.

Results

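The BAF complex subunit genes other than Smarcd1 were followed in data described as chromatin accessibility of the mouse mammary tumor line 6DT1. The 6 genes, Smarca4, Arid1a, Smarcb1, Smarcc1, Smarcc2 and Smarce1, were chosen by membership of the complex, and their members were the listed regions that overlap a fixed window around each gene in the mouse build mm39. The table made for the knockdown comparison (KD table) held 34 such regions among 44598, and the table made for the overexpression comparison (OE table) held 41 among 38036. Of the 34, 20 overlapped a member region of the OE table.

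ATAC-seq, which inserts adapters into open DNA with a transposase, was done on monolayer cells in 15 libraries, 3 in each of 5 groups. The groups were 6DT1 cells with an empty vector (EV, genotype labelled wildtype), with a Smarcd1 overexpression vector (OE), with a scramble hairpin (Scr, genotype labelled wildtype), and the hairpin knockdown lines KD4 and KD6 against Smarcd1. No group was treated with any other agent, and according to the methods hairpin cells were selected with puromycin and overexpression cells with blasticidin. The labels do not say which hairpin KD4 and KD6 carry, and each group is 1 transduced line. The labels place each replicate in a different passage, but within a protocol for RNA extraction, so part of the spread behind the p-values may be technical.

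BAF complexes, the mammalian SWI/SNF remodelers, use ATP to slide or eject nucleosomes and so change how open a stretch of DNA is. A complex is assembled from an ATPase, a core of scaffold subunits to which SMARCD1 also belongs, and accessory subunits that set its targeting. Genes of several subunits are known as tumor suppressors, and paralogs such as Smarcc1 and Smarcc2 can occupy the same place in the assembly. The question addressed was whether the regions of the other subunit genes differed when Smarcd1 was lowered or raised.

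Totals ran from 16176521 to 23703741 counts per library in the KD table and from 22668624 to 31225937 in the OE table, of which the member regions held 0.0474% and 0.054%. Neither table names genes, so the markers of the labelled mammary cells were not checked. The 4 regions called in OE against EV, none of them a member, all lay between chr15:99600214 and chr15:99610513, and the exon spacing of Smarcd1 in NCBIM37 could be laid over them so that at least 50% of each was exonic. The listed regions within the gene so placed summed in the OE table to 55.9 to 64.7 CPM in OE, 25.2 to 32.6 in EV, 10.6 to 13.9 in Scr, 7.55 to 9.77 in KD4 and at most 13.8 in KD6. OE lay above EV, EV above Scr and KD4 below Scr, while the KD6 libraries lay within the Scr range. The placement used the called regions themselves, so these sums are a description with no test. The methods describe Bowtie2 and MACS on ATAC-seq reads, while the labels describe RNA extraction and the submitters' processing notes name STAR 2.7.8a. These sources do not settle if reads other than ATAC-seq reads were counted.

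In each table most listed regions of the 6 genes lay on exons, but not in every gene. To compare them with gene structure, the spacing of exons within each gene was taken from the NCBIM37 annotation and slid as one block over the mm39 window to the position with the most exonic bases, so the overlaps are upper bounds. At that position 24 of 34 regions of the KD table and 27 of 41 of the OE table had at least 50% of their bases on exons, and these held 93.8% and 92.0% of the members' counts. Exons make up 6.1% of Smarcc1, 7.4% of Smarca4, 7.5% of Smarcb1, 12.1% of Arid1a, 13.3% of Smarce1 and 16.2% of Smarcc2. The exonic share of the region bases of both tables was 85.3% in Arid1a, 77.1% in Smarcc2, 60.7% in Smarca4, 53.8% in Smarcc1, 40.5% in Smarce1 and 40.2% in Smarcb1. Over both tables, 18 of 20 regions in Arid1a, 10 of 12 in Smarcc2 and 9 of 13 in Smarca4 were at least 50% exonic. So were 6 of 12 in Smarcc1, 5 of 11 in Smarce1 and 3 of 7 in Smarcb1. Whether reads from RNA had a part in this placement was not tested.

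**Figure D1:**
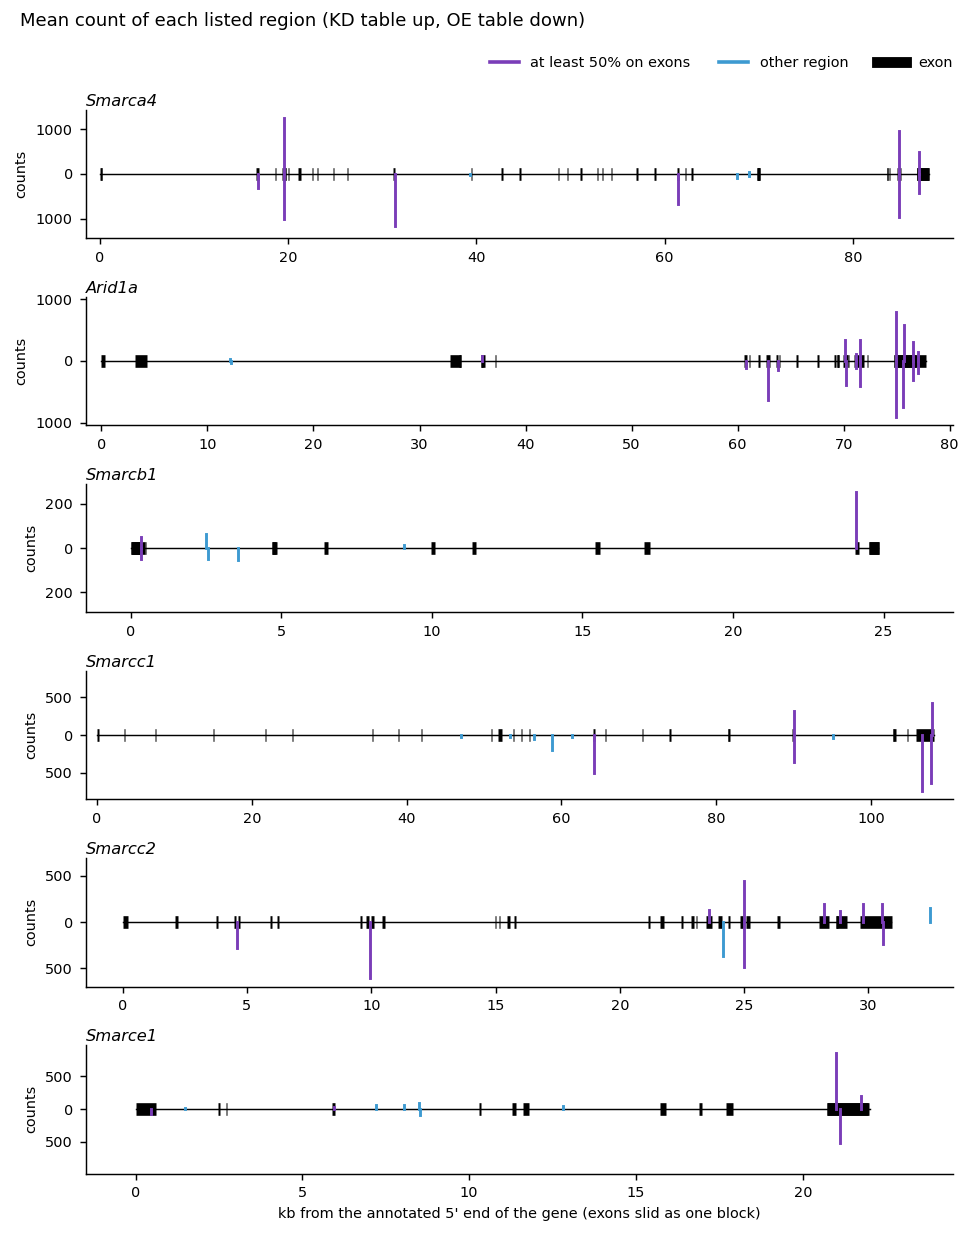
Each panel shows 1 gene, with kb from its annotated 5′ end on the x axis, exons as black boxes, and the mean count over 15 libraries of each listed region as a bar, upward for the KD table and downward for the OE table. Purple bars have at least 50% of their bases on exons (24 of 34 and 27 of 41), and the tallest bars of Arid1a, Smarcc1 and Smarce1 stand at the 3′ end. The tallest bar of Smarcb1 lies 0.68 kb from the 3′ end in the KD table and 21.07 kb from it in the OE table.

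The starts of 3 genes had no listed region nearby. Over all positions of the exon block tried, up to 3 kb past the window, the region nearest the annotated 5′ end lay at least 12.22 kb away in Smarca4, 7.74 kb in Arid1a and 42.09 kb in Smarcc1. In Smarcb1, Smarcc2 and Smarce1 it could be 0.0 kb at some of these positions. The searched flank of 10 kb on each side of the windows held 2 further regions in the KD table, beside Smarcc2 and Arid1a, and 1 in the OE table, beside Smarcb1.

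The promoters of Smarca4, the ATPase gene, and Smarcc1, a scaffold gene, are printed as examples of genes without a listed region near the start. They are RefSeq sequences of build GRCm38.p6, from 250 bases before to 50 bases after the start, both on the plus strand of chromosome 9, at chr9:21615919-21616218 and chr9:110131774-110132073 of that build. Capitals mark GCATGCGC or its reverse complement GCGCATGC, letters found in the binding motif of the factor NRF1, searched on both strands, where overlapping copies would be marked as 1 run.
Smarca4: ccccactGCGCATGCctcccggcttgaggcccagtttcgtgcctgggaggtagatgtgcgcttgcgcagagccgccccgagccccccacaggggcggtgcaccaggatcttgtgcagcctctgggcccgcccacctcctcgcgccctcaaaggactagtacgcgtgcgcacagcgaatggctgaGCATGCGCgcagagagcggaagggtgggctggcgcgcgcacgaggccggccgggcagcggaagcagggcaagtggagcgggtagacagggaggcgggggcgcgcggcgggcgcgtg
Smarcc1: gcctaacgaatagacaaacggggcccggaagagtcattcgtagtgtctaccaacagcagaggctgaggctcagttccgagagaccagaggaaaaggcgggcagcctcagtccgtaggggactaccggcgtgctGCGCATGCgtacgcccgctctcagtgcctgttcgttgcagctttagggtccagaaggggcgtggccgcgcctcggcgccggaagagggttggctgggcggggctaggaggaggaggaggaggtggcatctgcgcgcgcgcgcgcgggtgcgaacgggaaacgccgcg
RefSeq promoters were matched by symbol for 5 of the 6 genes, with 6 promoter entries in all, since Arid1a has more than 1, and Smarce1 was not among them. The letters occurred in 3 of the 6 entries, those of Smarca4, Smarcc1 and Smarcb1, and in 2.71% of all 32851 promoters of the same length. The Arid1a entries, not printed, hold none of these letters, although Arid1a also had no listed region near its start. A match is a description of the letters and not a binding site.

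The most counted region of each gene in the KD table lay at chr9:21546893-21547222 in Smarca4, chr4:133409047-133409263 in Arid1a, chr10:75732709-75732879 in Smarcb1, chr9:110068948-110069161 in Smarcc1, chr10:128319991-128320242 in Smarcc2 and chr11:99100557-99101053 in Smarce1. All 6 had at least 50% of their bases on exons at the chosen position. In Arid1a, 7 of the 9 KD table regions lay between 70.168 and 77.042 kb from the 5′ end of a gene of 77.8 kb. The OE table's most counted regions were chr9:21558687-21558967 in Smarca4, chr4:133409043-133409301 in Arid1a, chr10:75753105-75753501 in Smarcb1, chr9:110067411-110067885 in Smarcc1, chr10:128304891-128305215 in Smarcc2 and chr11:99100562-99100816 in Smarce1. For Arid1a and Smarce1 these overlap the KD table's choice, and for the other 4 genes they lie elsewhere in the gene. Of these 6, only that of Smarcb1, with a mean of 54.9 counts, had no exonic bases.

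Levels were compared between genes as CPM (counts scaled to the library total, with TMM factors) per kb of listed region. In the KD table Smarca4 had the highest mean over 15 libraries, 107.9 ± 9.5 CPM per kb (SD), followed by Smarcc1 with 103.3 ± 16.7, Arid1a with 62.6 ± 11.1, Smarcc2 with 40.6 ± 4.27, Smarce1 with 25.8 ± 2.52 and Smarcb1 with 17.2 ± 1.29. The ranges of neighbours in this order overlapped, except between Smarcc2 and Smarce1. In the OE table Smarca4 was again highest at 78.7 ± 5.98 CPM per kb, clear of every other gene, and Arid1a with 48.1 ± 8.12, Smarcc2 with 46.7 ± 6.67, Smarce1 with 42.9 ± 5.51 and Smarcc1 with 34.0 ± 4.73 followed with overlapping ranges between neighbours. Smarcb1 was lowest at 5.71 ± 1.03 CPM per kb, below every library of Smarcc1. The place of Smarcc1 differed between the tables because they list different regions of it, 2 of 370 bp in all in the KD table and 10 of 2935 bp in the OE table.

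The Smarcd1 knockdown lines gave no call among the members. By the Smarcd1 sums above, only KD4 lay below Scr, so KD6 showed no lowering of Smarcd1 in these data. With edgeR, 0 of 34 regions and 0 of 6 gene sums passed a false discovery rate (FDR) of 0.05 when the average of KD4 and KD6 was set against Scr, where 0.271% of the 44289 regions tested did. At an unadjusted p under 0.05, 2 member regions were higher and 1 was lower, and among the sums 0 were higher and 1, Smarcc1, was lower, where 5.27% and 2.98% of all regions were. In 1 member region every knockdown library was above every Scr library and in 0 every one was below, where 2.45% and 1.44% of all regions were. The log2 differences of the members had a median of 0.00 against -0.01 over all regions, with 17 above and 17 below 0. DESeq2 called 0 members as well, where it called 248 of all 44598 regions higher and 22 lower. In these bulk libraries a lower share of cells with an open region cannot be told apart from a less open region in each cell. Whether reads from RNA had a part in these counts was not tested.

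Raising Smarcd1 also gave no call. With edgeR, 0 of 41 regions and 0 of 6 sums passed the threshold for OE against EV, where 0.0106% of the 37765 regions tested did. At an unadjusted p under 0.05, 6 member regions were higher and 0 lower, against 4.37% and 4.2% of all regions, and 0 sums were, against 4.36% and 4.2% of all rows of that fit. The median log2 difference of the members was 0.18 against 0.02 over all regions, with 32 above and 9 below 0. These regions belong to 6 genes and are not independent of each other. In 8 of the 41 regions every OE library was above every EV library and in 1 every one was below, where 7.18% and 7.25% of all regions were. DESeq2 called 0 members here too, where it called 4 of all 38036 regions higher and 1 lower.

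**Figure D2:**
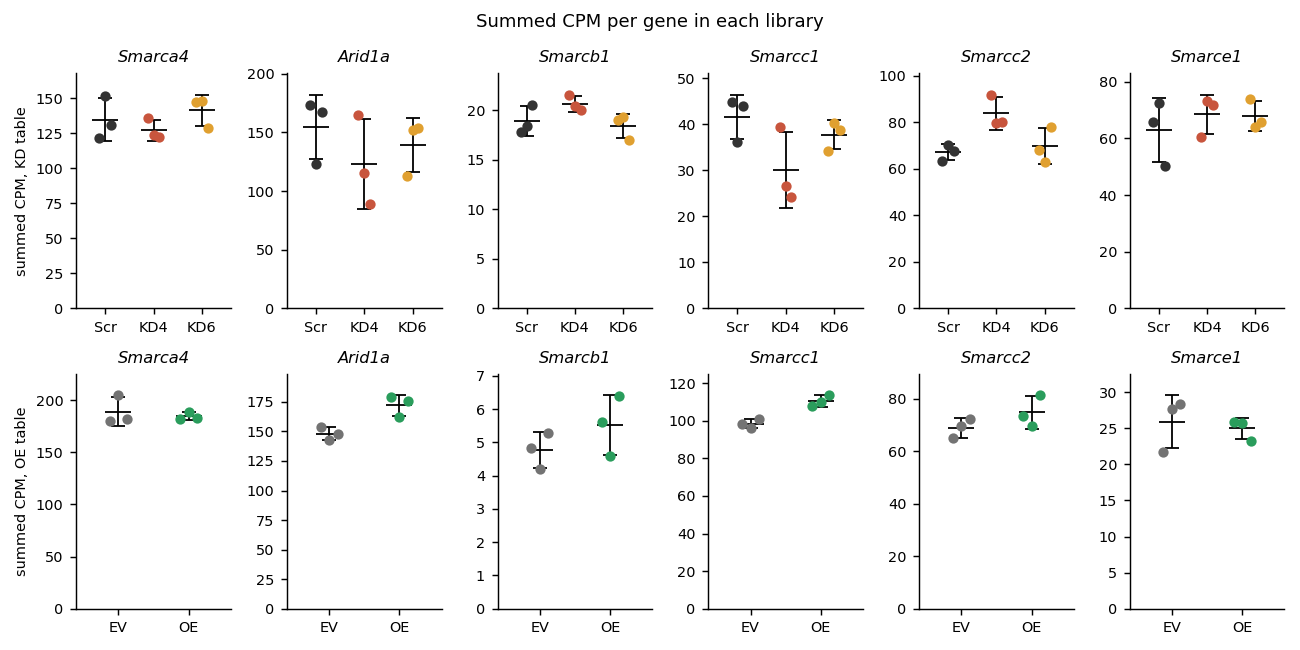
The y axis is the CPM summed over the listed regions of a gene, from 0, in the KD table (top, Scr, KD4 and KD6) and the OE table (bottom, EV and OE), with 1 point per library and bars for the mean and SD of 3. The OE points of Arid1a and Smarcc1 all lie above their EV points, and the KD4 points of Arid1a spread from 89.3 to 165.1 CPM.

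Smarca4 encodes the ATPase that drives remodeling. Its 4 regions in the KD table summed to 121.5, 151.5 and 130.6 CPM in Scr, to 135.6, 123.7 and 122.0 in KD4 and to 147.3, 148.1 and 128.3 in KD6. The groups overlapped, and the fitted ratio of knockdown to Scr was 0.996 (95% interval 0.848 to 1.17, edgeR FDR = 0.993). Its 9 regions of the OE table summed to 180.2, 205.1 and 182.1 CPM in EV and to 182.2, 188.9 and 183.3 in OE. The ratio of OE to EV was 0.989 (0.824 to 1.19, FDR = 0.977), and its sign depended on the scaling, as it was positive on the log2 scale without TMM and with upper-quartile scaling.

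Smarcc1 encodes a scaffold subunit around which the core assembles. Its sum in the KD table was 44.9, 36.1 and 43.9 CPM in Scr, 39.5, 26.6 and 24.2 in KD4 and 34.2, 40.3 and 38.7 in KD6. The lowest libraries were KD4 replicates 2 and 3, while KD4 replicate 1 lay within the Scr range. The fitted ratio of knockdown to Scr was 0.81 (95% interval 0.657 to 0.997, edgeR unadjusted p = 0.0476, FDR = 0.597), so the sum was not called over the whole table. An exact two-sided permutation test over the 9 libraries gave p = 0.143, where the smallest value possible is 0.0119. Its most counted region, at the 3′ end, fell short of a call in the same way, with a log2 difference of -0.44 ± 0.199 (SE, FDR = 0.574). Leaving out 1 library moved that difference between -0.65 and -0.22, and the smallest size was without Scr replicate 1.

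In the overexpression lines Smarcc1 lay on the other side of its control. Its 10 regions in the OE table summed to 98.2, 96.2 and 101.0 CPM in EV and to 107.8, 109.7 and 113.7 in OE. The groups did not overlap, and the ratio was 1.14 (95% interval 0.96 to 1.34, edgeR FDR = 0.642). An exact two-sided permutation test gave p = 0.1, the smallest that 3 against 3 libraries allow. In the same table the 3 Scr libraries, with no hairpin or vector aimed at Smarcd1, ranged from 96.0 to 117.3 CPM.

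Smarcc2 encodes the paralogous scaffold subunit. Its 7 regions in the KD table summed to 63.5, 70.4 and 67.8 CPM in Scr, to 91.9, 79.6 and 80.0 in KD4 and to 68.1, 63.0 and 78.1 in KD6. In that table all KD4 libraries were above all Scr libraries, whereas KD6 overlapped Scr. The share of all regions with KD4 wholly above Scr was not counted. Over the OE table's Smarcc2 regions KD4 overlapped Scr, with 101.9, 77.4 and 79.1 CPM against 80.5, 63.0 and 83.0. All 7 regions had a log2 difference above 0 for the average of both lines against Scr, from 0.058 to 0.32, and none passed the threshold. Taken singly, KD4 had -0.0034 at chr10:128327508-128327689 and KD6 had -0.16 at chr10:128325484-128325858. Regions of 1 gene are not independent of each other. The fitted ratio for both lines together was 1.14 (0.968 to 1.34, edgeR FDR = 0.71). Its 5 regions of the OE table summed to 64.9, 69.7 and 72.2 CPM in EV and 73.4, 69.5 and 81.5 in OE, overlapping groups with a ratio of 1.1 (0.926 to 1.3, FDR = 0.721).

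Smarcb1 encodes a core subunit that contacts the nucleosome. Its sum in the KD table was 17.8, 18.4 and 20.6 CPM in Scr, 21.6, 20.4 and 20.0 in KD4 and 19.0, 19.3 and 17.0 in KD6. These groups overlapped, and the ratio was 1.03 (0.874 to 1.22, edgeR FDR = 0.95). Among the OE table sums it had the fewest counts, 120 to 215 per library, and summed to 4.8, 4.2 and 5.3 CPM in EV and 5.6, 4.6 and 6.4 in OE. The ratio was 1.17, with the widest interval of the 6 genes in that comparison, 0.912 to 1.49 (FDR = 0.692).

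Smarce1 encodes an HMG-domain subunit that binds DNA. Its 8 regions in the KD table summed to 65.8, 72.5 and 50.4 CPM in Scr, to 60.4, 73.1 and 71.9 in KD4 and to 74.0, 63.9 and 65.9 in KD6. Scr replicate 3 was the lowest of the 15 libraries, the groups overlapped, and the ratio was 1.08 (0.903 to 1.3, edgeR FDR = 0.863). Its 3 regions of the OE table summed to 21.7, 27.7 and 28.4 CPM in EV and to 25.9, 25.7 and 23.3 in OE, a ratio of 0.975 (0.811 to 1.17, FDR = 0.94) whose sign also turned without TMM and with upper-quartile scaling.

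The pair of member regions with the smallest p in the knockdown comparison were in Smarce1. The region chr11:99115772-99115953 had 0.68, 1.41 and 0.801 CPM in Scr, 1.63, 1.75 and 1.19 in KD4 and 2.08, 1.52 and 1.22 in KD6. KD4 replicate 3 and KD6 replicate 3 lay below the highest Scr library, and the log2 difference was 0.69 ± 0.297 (SE, edgeR FDR = 0.54) on a mean of 26.1 counts. The region chr11:99114324-99114911 had 2.16, 2.87 and 2.94 CPM in Scr, 3.44, 4.55 and 2.95 in KD4 and 3.47, 3.6 and 3.81 in KD6. It was the 1 member region of the KD table in which every knockdown library was above every Scr library and its log2 difference was 0.45 ± 0.195 (FDR = 0.547).

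Arid1a encodes the large DNA-binding subunit that defines the canonical BAF assembly. Its 9 regions in the KD table summed to 173.5, 123.2 and 167.5 CPM in Scr, to 165.1, 115.0 and 89.3 in KD4 and to 113.1, 151.8 and 153.7 in KD6. Each group held libraries far apart, with Scr replicate 2, KD4 replicates 2 and 3 and KD6 replicate 1 low. The ratio of knockdown to Scr was 0.847 (95% interval 0.663 to 1.08, edgeR FDR = 0.761), and 8 of the 9 regions had a log2 difference below 0. These 4 libraries were also the ones at or below 36.1 CPM for Smarcc1 among the 9.

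In the OE table the 11 Arid1a regions summed to 153.7, 142.6 and 147.9 CPM in EV and to 178.7, 162.2 and 175.5 in OE. The groups did not overlap, and the ratio was 1.18 (95% interval 0.987 to 1.4, edgeR FDR = 0.597, exact permutation p = 0.1, the smallest possible). The Scr libraries of the same table spanned 127.7 to 181.0 CPM, more than the gap between EV and OE. Of the 11 regions 9 had a log2 difference above 0, with a median of 0.27, and in 4 of them every OE library was above every EV library, where 7.18% of all regions were. The region with the smallest p of all members, chr4:133420134-133420422, had 5.84, 5.33 and 4.68 CPM in EV and 7.53, 7.29 and 7.82 in OE. Its log2 difference was 0.53 ± 0.144 (SE, unadjusted p = 0.00167 in edgeR, FDR = 0.569), and the Scr libraries had 4.72, 4.76 and 9.56 CPM there.

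The next smallest p in the overexpression comparison belonged to Smarcc1. At chr9:110025266-110025445 the EV libraries had 15.4, 18.8 and 19.0 CPM and the OE libraries 23.8, 23.1 and 22.3. The groups did not overlap, and the log2 difference was 0.39 ± 0.122 (SE, edgeR FDR = 0.569). The Scr libraries had 17.3, 18.0 and 25.6 CPM there, a range that covers the 3 OE values.

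**Figure D3:**
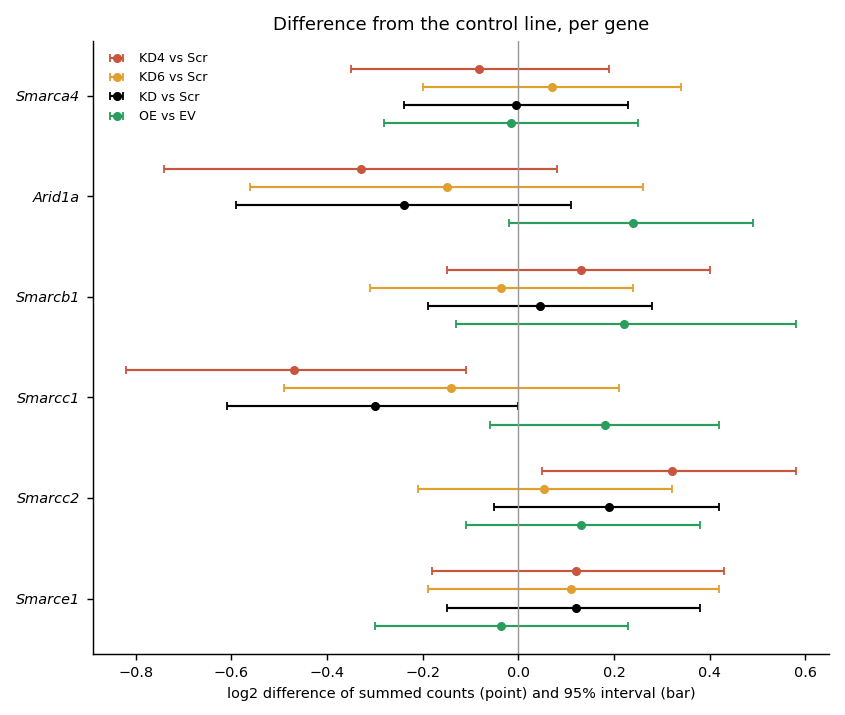
Points are log2 differences of the summed counts of each gene and bars their 95% intervals from edgeR, for KD4, KD6 and both lines (KD) against Scr in the KD table and for OE against EV in the OE table. Of the 24 intervals, those of Smarcc1 in KD4 (-0.47), Smarcc1 in KD (-0.30) and Smarcc2 in KD4 (0.32) lie off 0, and none of these passed the FDR of 0.05.

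The knockdown lines were also taken one at a time. In KD4 against Scr the Smarcc1 sum was lower by a log2 difference of -0.47 (95% interval -0.82 to -0.11, edgeR FDR = 0.315) and the Smarcc2 sum was 0.32 (0.05 to 0.58, FDR = 0.385), the reverse sign for the paralogous scaffolds. In KD6 the same sums differed by -0.14 (-0.49 to 0.21) and 0.053 (-0.21 to 0.32), and the smallest FDR of any of the 6 sums in KD6 was 0.984. The difference between the lines itself, KD6 minus KD4, was 0.33 (-0.03 to 0.68, FDR = 0.835) for Smarcc1 and -0.27 (-0.53 to 0.00, FDR = 0.787) for Smarcc2. Neither sum was called in either line or between the lines, where 0.576% of all rows tested were called in KD4, 0.149% in KD6 and 0.224% between them. At an unadjusted p under 0.05, edgeR had 1 sum higher and 1 lower in KD4, and 0 sums in KD6 or between the lines, where 9.74%, 5.88% and 6.37% of all rows were past that p.

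Whether the knockdown difference and the overexpression difference of a gene were themselves unequal was tested over all 15 libraries in the KD table. The knockdown difference minus the overexpression difference was -0.54 on the log2 scale for Arid1a (95% interval -1.01 to -0.06, edgeR FDR = 0.515) and -0.51 for Smarcc1 (-0.91 to -0.11, FDR = 0.469). Both intervals lay below 0, but 0 of 6 sums passed the threshold, where 0.0428% of all rows did, and 2 of 6 had an unadjusted p under 0.05, where 9.05% of all rows did. Smarce1 gave 0.24 (-0.11 to 0.59), Smarcc2 0.19 (-0.13 to 0.51), Smarcb1 -0.12 (-0.44 to 0.2) and Smarca4 0.018 (-0.31 to 0.35). Among single regions the smallest p were those of Arid1a at chr4:133408160-133408577, with -0.71 ± 0.285 (SE, FDR = 0.494), and chr4:133409047-133409263, with -0.82 ± 0.335 (FDR = 0.497).

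**Figure D4:**
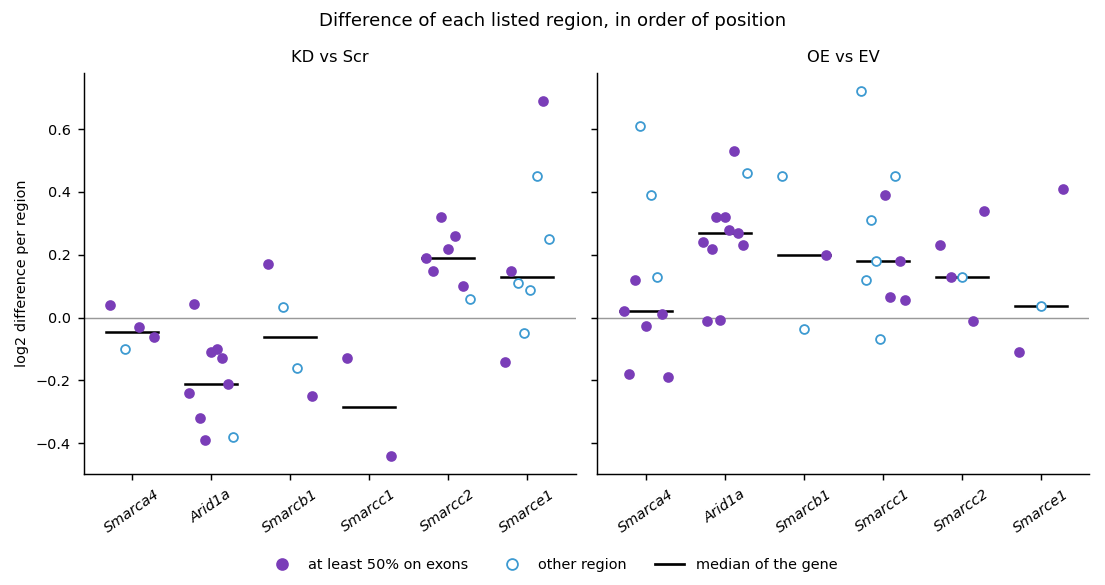
Each point is the log2 difference of 1 listed region, by gene and in order of position, for KD against Scr (left, 34 regions) and OE against EV (right, 41 regions), filled where at least 50% of the bases lie on exons, with a bar at the median of the gene. All 7 Smarcc2 regions lie above 0 on the left, and 9 of 11 Arid1a and 9 of 10 Smarcc1 regions lie above 0 on the right, with 0 regions past the FDR of 0.05.

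The control lines gave the size of a difference between lines in which Smarcd1 was not targeted. However, the counts at Smarcd1 itself differed between them. In the OE table its listed regions, placed as above, summed to 25.2 to 32.6 CPM in EV and 10.6 to 13.9 in Scr. The control lines also carry different vectors, and the methods give different selection drugs for hairpin and overexpression cells. Vector, drug, line and the level at Smarcd1 cannot be told apart here. Scr minus EV, in the same 15 libraries, was 0.31 for Arid1a (95% interval -0.05 to 0.67, edgeR FDR = 0.284), -0.23 for Smarce1 (-0.5 to 0.03, FDR = 0.269) and between -0.13 and 0.14 for the other 4 sums. In this fit of 15 libraries over the KD table, Arid1a differed by -0.24 in knockdown (-0.55 to 0.07) and 0.3 in overexpression (-0.06 to 0.66). The Arid1a value between the control lines was no smaller in size than either, and all these intervals reached 0. The Arid1a overexpression difference of 0.24 came from the OE table's own regions and a fit of EV and OE alone. No sum was called by edgeR, where 6.01% of all rows tested were, and 0 sums had an unadjusted p under 0.05, where 24.5% of all rows did.

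One member region passed the threshold between the control lines, where 6.0% of all regions did. It was chr10:75756362-75756729 in Smarcb1, 0.336 kb from the 5′ end at the chosen position of the exons, which had 2.21, 1.7 and 1.88 CPM in EV and 3.46, 2.76 and 3.47 in Scr. Every Scr library was above every EV library, and the log2 difference was 0.74 ± 0.218 (SE, edgeR FDR = 0.0448). The call rested on a narrow margin, since leaving out 1 library in turn ended it in 9 of 15 cases. These were each of the 3 EV libraries, OE replicates 1 and 3, Scr replicates 1 and 3, KD4 replicate 3 and KD6 replicate 2, with an FDR from 0.0517 to 0.147. The OE and KD libraries had 2.84, 2.01 and 2.42 CPM (OE), 3.38, 2.53 and 3.42 (KD4) and 2.5, 2.18 and 2.43 (KD6) there, and the region was not called for knockdown against Scr, with a log2 difference of -0.25 ± 0.186 (FDR = 0.774). The Smarcb1 region with the most counts, at the other end of the gene, had 11.3 to 13.1 CPM in EV and 10.1 to 12.1 in Scr, overlapping groups.

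The region of the KD table whose log2 CPM followed each sum most closely over the 15 libraries is given as a description, since all points share the libraries and their scaling. Among 23804 regions of at least 5 CPM outside the members, Pearson's r was 0.98 for Arid1a with chr11:69628095-69628304, 0.97 for Smarcc1 with chr17:24038644-24039026 and 0.94 for Smarce1 with chr6:4077234-4077984. It was 0.92 for Smarca4 with chr3:94966198-94966405, 0.85 for Smarcc2 with chr7:99254735-99255822 and 0.82 for Smarcb1 with chr17:47109896-47111048.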

How the data were processed

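The authors deposited 1 table per comparison with expected counts per region, not normalized, on mm39. The methods name Bowtie2 and MACS in Partek Flow, and the submitters' processing notes name STAR 2.7.8a. How peaks were merged and reads assigned is not stated in these sources. Another 15 columns of each table match no sample and were left out. Counts were rounded (95.1% and 95% were exactly whole, with a tolerance of 0) and tested by quasi-likelihood in edgeR 4.0.16 (R 4.3.3) with TMM, its default low-count filter and Benjamini-Hochberg adjustment over the whole table at 0.05, instead of the whole-number counts the design assumed. Gene sums replaced the member regions as 1 row per gene. The smallest ratio of replicate variance to sampling noise was 3.53, so no library appears to be a duplicate of another in its group. Libraries of different groups were not compared in this way. Scripts were tested on simulated data. DESeq2 1.42.0, other scalings, filters and fits were alternatives. CPM used TMM over 15 libraries.

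The members and lists were chosen with earlier results of these data known. Regions named singly were, per gene and table, the one with the most counts, any past the FDR of 0.05, and the 2 with the smallest p per comparison. Regions shown beyond that were chosen after their values were seen. No mm39 annotation was used, so a list of other complex members and the cell type markers could not be applied. The regions run past the chromosome ends of NCBIM37 on 8 of 22 chromosomes, so only exon spacing was taken from it. Promoters came from RefSeq (GRCm38.p6).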

Additional observations from a re-analysis of the deposited data

How the results depend on the processing

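The number of called regions and sums was 0 in KD against Scr and in OE against EV, and the number of called sums was 0 in KD6 against KD4, in the knockdown difference minus the overexpression difference and in Scr against EV. Each of these stayed 0 in the 66 alternative counts (DESeq2, other scalings and filters, an FDR of 0.1, all 15 libraries in one fit, single lines, the other table, an exact permutation test) and in every fit without 1 library, from 0 to 0. The permutation test of OE against EV could not pass, since its smallest p is 0.1. Exons alone and off-exon regions alone, and the alternatives for the Smarcb1 region called in Scr against EV, were chosen after seeing the data. Leaving out 1 library moved that region between 0.66 and 0.85, and it lost the call in 9 of 15 such fits. Without TMM the median log2 difference of all rows in OE against EV was 0.12, against 0.02 with it.

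Of the other values of named regions and sums, 23 turned sign, and 0 of them were called under any setting. The cause was not tested. In KD against Scr, the Smarca4 region from 21546893 was -0.019 in KD4 alone. The Smarca4 sum was 0.071 over the other table's regions, 0.07 in KD6 alone and 0.039 in its most counted region alone. The Smarcb1 sum was -0.14 over the other table's regions, -0.037 in KD6 alone, -0.17 without its most counted region and -0.13 off exons. In OE against EV, the Smarca4 sum was 0.081 without TMM, 0.046 with upper-quartile scaling, 0.019 with at least 50 counts in 3 libraries, 0.12 in its most counted region and 0.37 off exons. The Smarce1 sum was 0.054 without TMM, 0.022 with upper-quartile scaling, 0.22 without its most counted region and 0.037 off exons, and the Smarcc2 sum was -0.0023 over the other table's regions. Over the other table's regions, Smarce1 was 0.037 in KD6 against KD4, Smarcc2 was -0.012 in the knockdown difference minus the overexpression difference, and Smarcc2 was 0.13 in Scr against EV. Without TMM, Smarca4 was -0.06 in the knockdown difference minus the overexpression difference and Smarcc2 was 0.027 in Scr against EV.

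Leaving out 1 library in turn, values that changed sign ranged as follows. In KD against Scr they were -0.011 to 0.34 for the Smarce1 region from 99100557, -0.045 to 0.19 for the Smarca4 region, -0.074 to 0.088 for the Smarca4 sum and -0.02 to 0.23 for the Smarce1 sum. In OE against EV they were -0.058 to 0.031 for Smarca4 and -0.16 to 0.04 for Smarce1. In KD6 against KD4 they were -0.0053 to 0.45 for Arid1a and -0.093 to 0.041 for Smarce1, and for Smarca4 the knockdown difference minus the overexpression difference was -0.061 to 0.11.

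Deviations of same-numbered libraries correlated between -0.219 and 0.276 over 9 KD table pairs. Differently numbered pairs there reached further, with -0.437 for Scr replicate 2 and KD4 replicate 1 and 0.376 for Scr replicate 2 and KD6 replicate 1. In EV and OE (OE table) r was -0.0401, 0.324 and 0.312 for replicates 1, 2 and 3, so 2 and 3 may be paired. With the replicate number as a block the Smarcc1 sum was -0.31 in KD against Scr and the Arid1a sum 0.23 in OE against EV, and 0 members were called in either.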
